A study of Sus scrofa with 21 samples.

Results

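Complement, coagulation and their inhibitors were described in whole blood of DD minipigs and Large White (LW) pigs. A list of 43 genes was used, and a gene was taken as found when its symbol stood in the gene name column of the array. The symbol was written exactly so for 36 genes. A further 6 genes were found under another letter case, a RefSeq gene identifier or a RefSeq synonym (PROS1, CFD, F10, TFPI, SERPIND1 and SERPINE2), and C3AR1 was not analysed here. Of the 42 genes found, 40 passed the filter on low signals, among 34512 features tested in all. The 2 that did not were F3, the tissue factor that starts coagulation, with no probe well above background on any array, and PLAT, the tissue plasminogen activator, with no probe above background on more than 1 array of either breed.

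The DD group held 10 pigs out of 5 litters, and the LW group 11 pigs out of 6. All were 60 days old, ate a standard diet ad libitum and were bled into PAXgene tubes, which keep the RNA of every blood cell together. DD pigs are inbred minipigs of the SLAdd line, which carry a single haplotype (dd) of the swine major histocompatibility complex, while LW is a commercial breed. The breeds thus differed in genome, body size and degree of inbreeding at once, and these cannot be told apart.

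Complement is a cascade of plasma proteases that marks particles for uptake and ends in a pore in the target membrane. It starts through the C1 complex or through factor B and factor D, and cells guard themselves with surface inhibitors such as CD55 and CD59. Coagulation is a second protease cascade, which makes thrombin and fibrin. It is held back by thrombomodulin, the protein C pathway and serpins, and fibrin is removed again by plasmin. Most of these proteins are secreted by the liver into plasma, whereas properdin, factor XIII A and several receptors are made by blood cells. Whole-blood RNA reports only the share made by the cells in the tube.

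Values are given on the log2 scale of the deposited, quantile-normalised signals, adjusted for the chip, and each gene is the mean of its kept probes. A difference is DD minus LW, with the SE of the limma fit that held breed and chip as fixed effects and litter as a random block. A gene was called at an adjusted p of 0.05. In bulk blood, fewer cells of a type and less RNA per cell cannot be told apart.

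Some 60-base array probes of members named below are shown here, since each value rests on the signal of such oligonucleotides. Capitals mark bases shared with another probe of the same gene in a run of at least 20 bases. The first group belongs to called genes.
CFB probe A_72_P302604: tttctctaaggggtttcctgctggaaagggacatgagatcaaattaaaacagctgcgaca
SERPING1 probe A_72_P011466: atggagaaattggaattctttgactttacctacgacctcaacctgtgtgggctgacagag
FGL2 probe A_72_P598473: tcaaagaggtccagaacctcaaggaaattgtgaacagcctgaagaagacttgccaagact
F8 probes A_72_P146841 and O1554: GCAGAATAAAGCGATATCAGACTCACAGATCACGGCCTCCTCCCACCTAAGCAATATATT
The second group belongs to C3 and CD55, whose probes differed in direction.
C3 probe A_72_P443993: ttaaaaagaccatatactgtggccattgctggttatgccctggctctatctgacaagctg
C3 probe O9203: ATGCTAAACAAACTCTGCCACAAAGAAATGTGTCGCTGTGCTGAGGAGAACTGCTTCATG
CD55 probe A_72_P165046: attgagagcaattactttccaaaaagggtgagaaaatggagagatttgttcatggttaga
CD55 probe A_72_P443243: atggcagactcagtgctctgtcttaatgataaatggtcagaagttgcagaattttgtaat

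The F8 sequence stood on the array under both probe names. In all, 5 genes (C3, F2, F8, PLAT and VSIG4) had a pair of probes with the same 60 bases, so such pairs are repeated measurements and not independent probes. No probe shared a run of 20 bases with a probe of another member.

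Of the tested genes, 8 differed between the breeds. THBD, FGL2, A2M and SERPINE2 were lower in DD pigs, and CFB, PROCR, SERPING1 and F8 were higher. The 8 calls made up 20% of the 40 members, beside 21.2% of all 34512 features, so the members were called about as often as any other feature. By direction, 4 members were higher, beside 11.4% of all features, and 4 were lower, beside 9.8%. The median difference of the members was 0.05 and that of all features -0.05. In none of the 40 did the 2 breeds separate without overlap, which 0.666% of all features did.

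**Figure D1:**
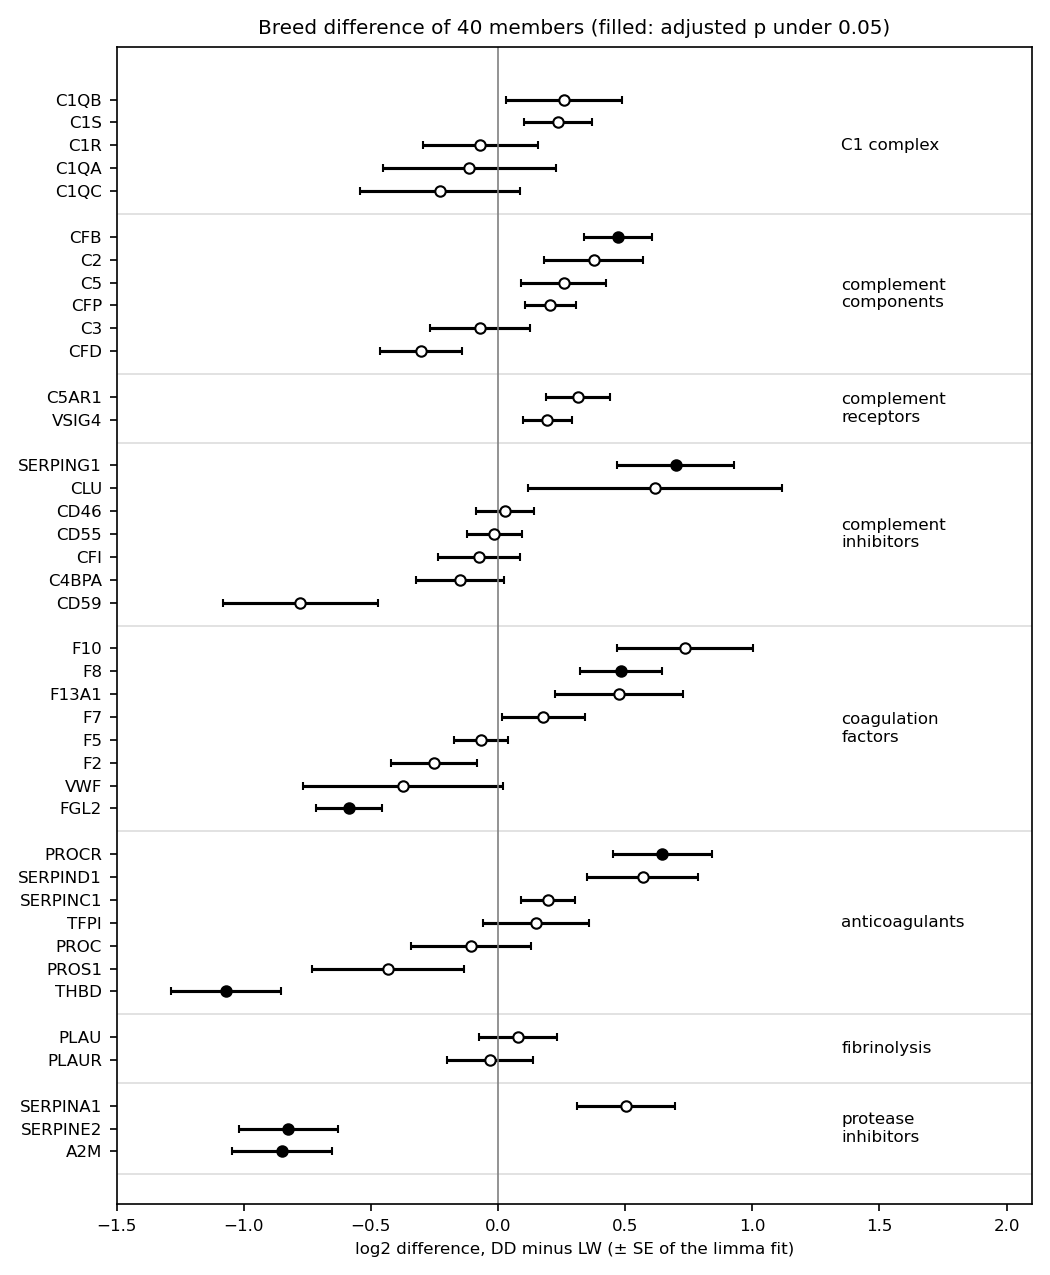
Breed difference of the 40 members by role, on a log2 axis as DD minus LW, with bars for the SE of the limma fit and filled points for an adjusted p under 0.05. THBD lies farthest to the left at -1.07, and the C1 complex and fibrinolysis rows hold no filled point.

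The DD arrays were dimmer than the LW arrays. Brightness, taken as the 75th percentile of each array's processed signal, was 7.53 ± 0.54 on the log2 scale in DD (SD, n = 10) and 8.22 ± 0.38 in LW (SD, n = 11), and the litter means differed by an exact two-sided permutation test (p = 0.00866 over 462 divisions of the litters). The gap was 7.95 against 8.02 on chip 1, 7.55 against 8.31 on chip 2 and 7.09 against 8.36 on chip 3. The paper's own quality control found a technical bias of the third chip, and outlier arrays were removed there. With this brightness as a covariate 1 of the 8 calls was left, SERPINE2, beside 2.18% of all features called, and without chip 3 it was again SERPINE2 alone, beside 1.52%. All 8 kept their direction in both fits. Of all probes, 44.7% to 63.8% were well above background per array, and none was saturated.

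The C1 complex opens the classical pathway of complement: C1q binds antibody on a surface, and the proteases C1r and C1s then cleave the next components. None of its 5 genes was called. C1QB differed by 0.26 ± 0.23 (SE, limma adjusted p = 0.423). Of its 2 probes, O8971 passed alone at 0.38 ± 0.12 (adjusted p = 0.0269), and the other differed by 0.14. Their strand was not checked either, so C1QB values may draw in part on a probe opposite to the mRNA. C1S differed by 0.24 ± 0.13 (adjusted p = 0.202) and was well above background on at most 2 DD and 6 LW arrays. C1R differed by -0.07 ± 0.23 and C1QA by -0.11 ± 0.34. C1QC rose well above background on 3 LW arrays and on none of the DD arrays, so no fold is given. Its adjusted p was 0.629 in the fit.

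The C1q chains varied more between pigs than between breeds. C1QA, C1QC and C1QB, which lie next to each other in the RefSeq annotation of Sscrofa11.1, encode the chains of 1 protein. In C1QA the LW values ran from 3.38 over a median of 3.89 to 6.33, and the DD values from 3.31 over 3.97 to 5.18. LW replicates 4 and 24, which came from different litters, stood at 6.33 and 6.13 in C1QA, 8.30 and 7.87 in C1QB, and 5.55 and 5.71 in C1QC. These were the 2 highest LW pigs for C1QA and C1QB, while in C1QC LW replicate 5 was as high, at 5.67. The signal of C1QA was well above background only on those 2 LW arrays and on that of DD replicate 8. These animals were singled out after their values were seen.

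Among the complement components, 1 of 6 genes was called. CFB, the protease of the alternative pathway convertase, was higher in DD pigs. Its DD values ran from 5.01 over a median of 5.34 to 5.66, and its LW values from 4.10 over 4.81 to 5.30. The breeds overlapped, with 5 of 10 DD pigs above every LW pig. The difference was 0.47 ± 0.13 (SE, 1.39-fold, limma adjusted p = 0.0216). Both probes were higher in DD but neither passed alone, and the gene was well above background on at most 7 DD and 9 LW arrays. Probe O1992 differed by 0.64 ± 0.25 (adjusted p = 0.0692) and A_72_P302604, shown above, by 0.31 ± 0.17 (adjusted p = 0.197). The strand that each probe reads was not checked, so the CFB value may draw in part on a probe opposite to the mRNA. The differences of the gene were 0.18, 0.36 and 0.95 on chips 1, 2 and 3, and 0.20 ± 0.15 with brightness as a covariate (adjusted p = 0.758). The call was also lost without DD replicate 21 (adjusted p = 0.0501) and without LW replicate 18 (adjusted p = 0.0594), without the chip term (0.0509), without chip 2 (0.0582), over probes well above background (0.0526) and with the probe of the highest mean (0.0658).

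C2, the protease of the classical pathway convertase, is the RefSeq neighbour of CFB on chromosome 7. It differed by 0.38 ± 0.20 (adjusted p = 0.165), and its DD values ran from 7.12 over 7.83 to 8.70 against 6.94 over 7.46 to 8.29 in LW. Of its 3 probes, 1 passed alone, at 0.50 ± 0.15 (adjusted p = 0.0238). CFP, properdin, which steadies the alternative convertase and is made by leukocytes, differed by 0.21 ± 0.10 (adjusted p = 0.137). CFD, the protease that activates factor B, differed by -0.30 ± 0.16 (adjusted p = 0.176). C5, the source of the anaphylatoxin C5a, was at 4.65 ± 0.48 in DD and 4.39 ± 0.30 in LW (SD), well above background on at most 3 DD and 2 LW arrays.

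C3 is the component on which all complement pathways meet, and its difference depended on the probe. The mean of 6 probes differed by -0.07 ± 0.20 (adjusted p = 0.820). Probe A_72_P443993, shown above, was higher in DD by 0.94 ± 0.28 (adjusted p = 0.0263), while the other 5 lay between -0.44 and -0.13 and none of them passed. It was also the probe with the highest mean, so a summary by that probe gave a call and the mean of the probes did not.

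Neither of the 2 measured receptors was called. C5AR1, the receptor for C5a on neutrophils and monocytes, differed by 0.32 ± 0.13 (adjusted p = 0.0752). Its probe A_72_P305754 was higher in DD by 0.83 ± 0.21 (adjusted p = 0.0130) and the other probe differed by -0.20 ± 0.18. VSIG4, a receptor of tissue macrophages for C3 fragments, differed by 0.19 ± 0.10 (adjusted p = 0.145), with 5 of its 6 probes higher in DD. Among those 5, A_72_P157646 and A_72_P503026 have the same sequence, and only O11980 passed alone (0.47 ± 0.15, adjusted p = 0.0344).

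Of 7 complement inhibitors, SERPING1 was called. It encodes the C1 inhibitor, which blocks C1r and C1s and also the contact proteases of coagulation. Its DD values ran from 6.81 over 7.80 to 9.28 and its LW values from 6.74 over 7.07 to 7.90. Here 5 of 10 DD pigs lay above every LW pig, DD replicate 6 highest of all, and the SD was 0.73 in DD against 0.33 in LW. The difference was 0.70 ± 0.23 (SE, 1.62-fold, adjusted p = 0.0359). It was 0.91, 0.35 and 0.92 on chips 1, 2 and 3, and 0.80 ± 0.31 with brightness as a covariate (adjusted p = 0.260). All 4 probes were higher in DD, and 2 of them passed alone. The SERPING1 probe shown above was not one of these (0.93 ± 0.38, adjusted p = 0.0827).

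The SERPING1 call did not hold when 1 of 9 pigs was left out. These were DD replicates 10, 11, 21 and 23 and LW replicates 4, 5, 12, 18 and 22, with an adjusted p of up to 0.0873 (without LW replicate 18). Over all 21 removals the difference stayed between 0.49 and 0.82. The call was lost too without the litter block (0.0520), with no filter on low values (0.0573), without the chip term (0.0879) and without chip 1 (0.0979).

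CD59, which stops the last step of the pore on the cell's own membrane, had the largest difference among members that did not pass. The difference was -0.78 ± 0.30 (adjusted p = 0.0701). In LW its values ran from 5.99 over 6.87 to 8.44, and in DD from 5.88 over 6.42 to 7.68. Among LW pigs 5 lay between 7.67 and 8.44, and these were all the pigs of litters F, I and K, while the 6 pigs of litters G, H and J lay between 5.99 and 6.87. The highest pair in DD, at 6.88 and 7.68, came from litter B. The split by litter was noticed after the values were seen and was not tested. It passed without DD replicate 6 (adjusted p = 0.0184), without LW replicate 4 (adjusted p = 0.0482) and without LW replicate 24 (adjusted p = 0.0347), and with the probe of the highest mean (-1.02, adjusted p = 0.0446).

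CD55, the decay-accelerating factor of blood cell membranes, showed opposite calls at its 2 probes. A_72_P165046 was lower in DD by 0.37 on the log2 scale (difference -0.37 ± 0.12, adjusted p = 0.0381), and A_72_P443243 was higher (0.34 ± 0.11, adjusted p = 0.0353). The gene mean differed by -0.01 ± 0.11. CD46, which helps cleave C3b on cells, differed by 0.03 ± 0.11, CFI, the protease that does so, by -0.07 ± 0.16, and C4BPA, a plasma cofactor, by -0.15 ± 0.17. RefSeq lists more than 1 locus named C4BPA, so this gene's probes may draw on both.

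**Figure D2:**
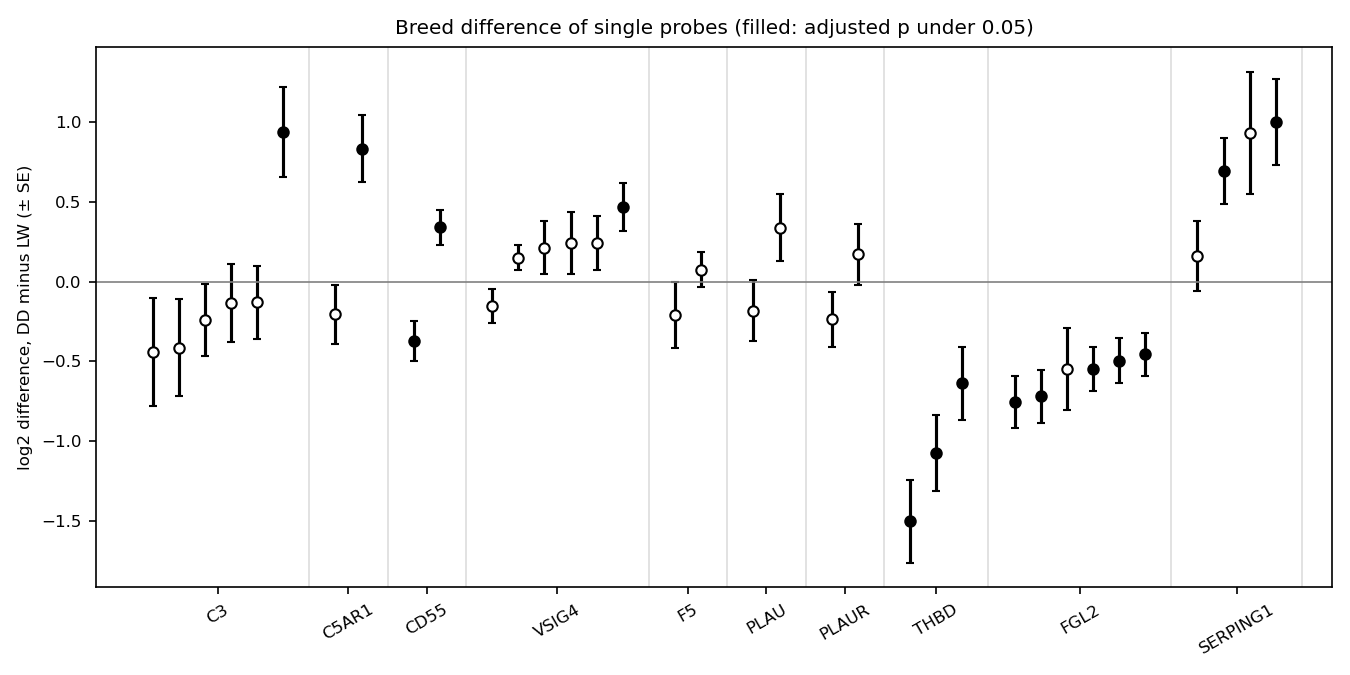
Breed difference of each kept probe for 10 genes, on a log2 axis as DD minus LW with SE bars, filled where the adjusted p over all probes was under 0.05. C3, C5AR1 and CD55 hold probes on both sides of 0, whereas all 3 THBD probes and all 6 FGL2 probes are below it.

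Over all members, 85 probes were kept and 26 of them were called (30.6%, beside 21.7% of all 45229 probes), 13 in each direction. Probes of the same gene are not independent, and both F8 probes, which have the same sequence, were counted. By gene the share was 20%, beside 21.2% of all features. In 7 of the 24 genes with more than 1 kept probe the probes differed in sign: C3, C5AR1, CD55, F5, PLAU, PLAUR and VSIG4. A called probe was found in 9 genes that were not called themselves.

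Of the 8 coagulation factors tested, FGL2 was lower and F8 was higher. FGL2 is a fibrinogen-like protein, made by T cells and macrophages, which can cleave prothrombin. Its DD values ran from 9.04 over 9.54 to 10.01 and its LW values from 9.83 over 10.06 to 10.66. Of 10 DD pigs 8 lay below every LW pig. The difference was -0.59 ± 0.13 (SE, 1.5-fold lower, adjusted p = 0.00581), and it was -0.48, -0.62 and -0.65 on chips 1, 2 and 3. Of its 6 probes 5 passed alone, of which A_72_P180891 and O8133 share 58 of 60 bases and are near repeats. The FGL2 probe shown above was the one that did not pass (-0.55, adjusted p = 0.123). With brightness as a covariate it was -0.46 ± 0.17 (adjusted p = 0.201), and without chip 3 it was -0.54 ± 0.16 (adjusted p = 0.126).

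F8, the cofactor that speeds activation of factor X, ran from 10.89 over 11.81 to 12.29 in DD and from 10.57 over 11.17 to 11.67 in LW. Of 10 DD pigs 6 were above every LW pig. The difference was 0.48 ± 0.16 (SE, 1.40-fold, adjusted p = 0.0391), with both probes sharing 1 sequence. It was 0.10, 0.42 and 1.00 on chips 1, 2 and 3, and 0.13 ± 0.18 with brightness as a covariate (adjusted p = 0.941). The call was lost when 1 of 12 pigs was left out, namely DD replicates 1, 8, 10, 19, 21 and 23 and LW replicates 5, 12, 14, 15, 18 and 22, with an adjusted p of up to 0.117 (without LW replicate 18). It was lost too without the litter block (0.0620), with no filter on low values (0.0648), without the chip term (0.179) and without chip 2 (0.0540).

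F10, the factor at the meeting point of the pathways, was next largest among members that did not pass, at 0.74 ± 0.27 (adjusted p = 0.0537). Its DD values ran from 6.48 over 7.50 to 8.85 and its LW values from 6.10 over 6.77 to 8.23. By chip it was -0.14, 0.60 and 1.90, and with brightness as a covariate it was -0.22 ± 0.16. It passed without DD replicate 6 (adjusted p = 0.00595), DD replicate 11 (0.0329), LW replicate 7 (0.0205) or LW replicate 15 (0.0278). It passed also with litter means (0.70 ± 0.22, adjusted p = 0.0428), without chip 1 (1.15 ± 0.29, 0.0114), over probes well above background (0.0397) and from scanner intensities with no offset (0.0482). F7, its RefSeq neighbour, which joins tissue factor, differed by 0.18 ± 0.16 and was well above background on at most 3 DD and 8 LW arrays. F2, prothrombin, differed by -0.25 ± 0.17, well above background on at most 1 DD and 6 LW arrays. F13A1, which cross-links fibrin and is made by monocytes and platelets, differed by 0.48 ± 0.25 (adjusted p = 0.173), F5, the cofactor of factor Xa, by -0.07 ± 0.11, and VWF, the adhesive protein that carries factor VIII, by -0.37 ± 0.39.

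Among the anticoagulants, THBD was lower and PROCR was higher in DD. THBD is thrombomodulin, the receptor that turns thrombin toward protein C. Its DD values ran from 4.76 over 5.82 to 6.53 and its LW values from 5.84 over 6.85 to 7.88. Of 10 DD pigs 5 were below every LW pig. The difference was -1.07 ± 0.22 (SE, 2.1-fold lower, adjusted p = 0.00315), the largest of the 40. It was -0.58, -0.80 and -1.96 on chips 1, 2 and 3. All 3 probes passed alone, from -1.5 to -0.64. With brightness as a covariate it was -0.81 ± 0.29 (adjusted p = 0.188). Leaving out any 1 of the 21 pigs kept the call, with differences between -1.18 and -0.95.

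PROCR, the protein C receptor, ran from 8.34 over 9.43 to 10.04 in DD and from 8.14 over 8.5 to 9.55 in LW. Of 10 DD pigs 4 were above every LW pig. The difference was 0.65 ± 0.19 (SE, 1.57-fold, adjusted p = 0.0269), from 1 kept probe of 4. It was 0.01, 0.65 and 1.36 on chips 1, 2 and 3, and 0.02 ± 0.14 with brightness as a covariate (adjusted p = 0.995). The call was lost without DD replicate 21 (adjusted p = 0.0677), LW replicate 18 (0.0766) or LW replicate 22 (0.0559), without chip 2 (0.0698) and without the chip term (0.0864). With no filter on low values, which brings in the 3 removed probes, the difference was 0.20 ± 0.15 (adjusted p = 0.411).

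The other 5 anticoagulants were not called. SERPIND1, heparin cofactor II, differed by 0.57 ± 0.22 (adjusted p = 0.0642), and SERPINC1, antithrombin, by 0.20 ± 0.11. TFPI, which blocks tissue factor, differed by 0.15 ± 0.21. PROS1, protein S, differed by -0.43 ± 0.30, from 1 probe annotated to a human transcript. PROC, protein C itself, rose well above background on 2 LW arrays and on none of the DD arrays, so no fold is given. In fibrinolysis, PLAU, urokinase, differed by 0.08 ± 0.15, and its receptor PLAUR by -0.03 ± 0.17.

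Of 3 broad protease inhibitors, A2M and SERPINE2 were lower in DD. A2M, which traps proteases of many classes, ran from 5.58 over 6.17 to 6.96 in DD and from 6.35 over 7.07 to 7.69 in LW. Of 10 DD pigs 6 were below every LW pig. The difference was -0.85 ± 0.20 (SE, 1.80-fold lower, adjusted p = 0.00837), and it was -0.69, -0.65 and -1.27 on the chips in turn. With brightness as a covariate it was -0.66 ± 0.26 (adjusted p = 0.261).

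SERPINE2, protease nexin-1, which inhibits thrombin and urokinase and is held in platelets, ran from 3.88 over 4.32 to 5.56 in DD and from 4.35 over 5.30 to 5.89 in LW. DD replicate 21 was the highest DD pig, at 5.56, and 5 of 10 DD pigs lay below every LW pig. The gene was well above background on at most 2 DD and 9 LW arrays, so most DD values lay near the background and no fold is given. The measured difference was -0.82 ± 0.19 (SE, adjusted p = 0.00887), and it was -0.92, -1.21 and -0.20 on the chips in turn. It kept its call with brightness as a covariate (-1.03 ± 0.26, adjusted p = 0.0366) and without chip 3 (-1.13 ± 0.20, adjusted p = 0.00694), and lost it without chip 2 (adjusted p = 0.0772), with no filter on low values (-0.43 ± 0.16, adjusted p = 0.0909) and with the probe of the highest mean in place of the average (-0.65 ± 0.28, adjusted p = 0.0975). SERPINA1, alpha-1 antitrypsin, differed by 0.50 ± 0.19 (adjusted p = 0.0640), and was well above background on at most 2 DD and 1 LW arrays. Its highest DD pig was DD replicate 10, at 6.2, and the next DD pig had 4.88.

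**Figure D3:**
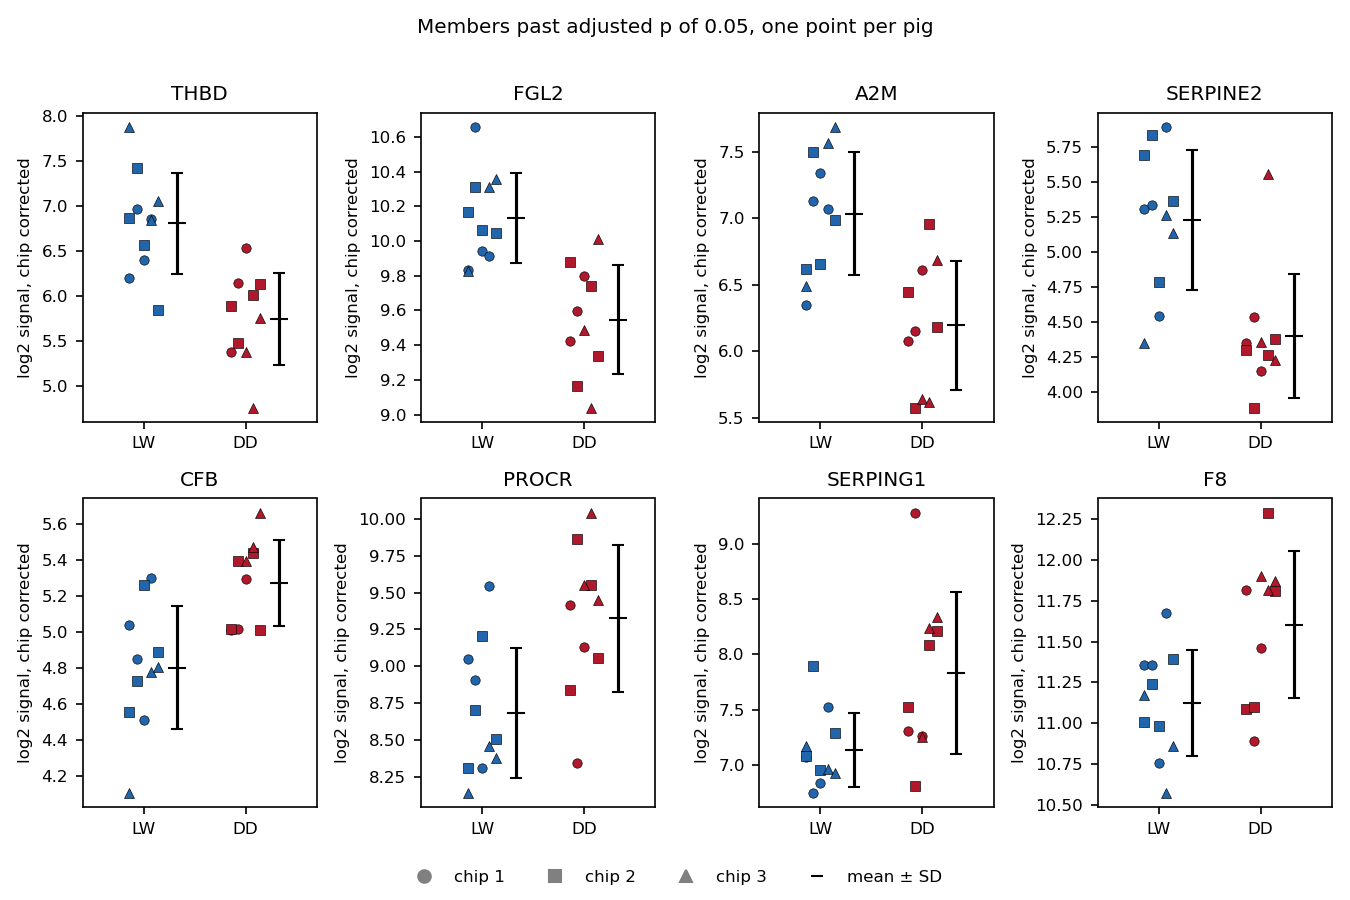
Chip-corrected log2 signal of the 8 called members, one point per pig (11 LW, 10 DD) with the marker giving the chip and bars for mean ± SD. The breeds overlap in all 8 panels, least in FGL2, where 8 DD pigs lie below every LW pig.

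**Figure D4:**
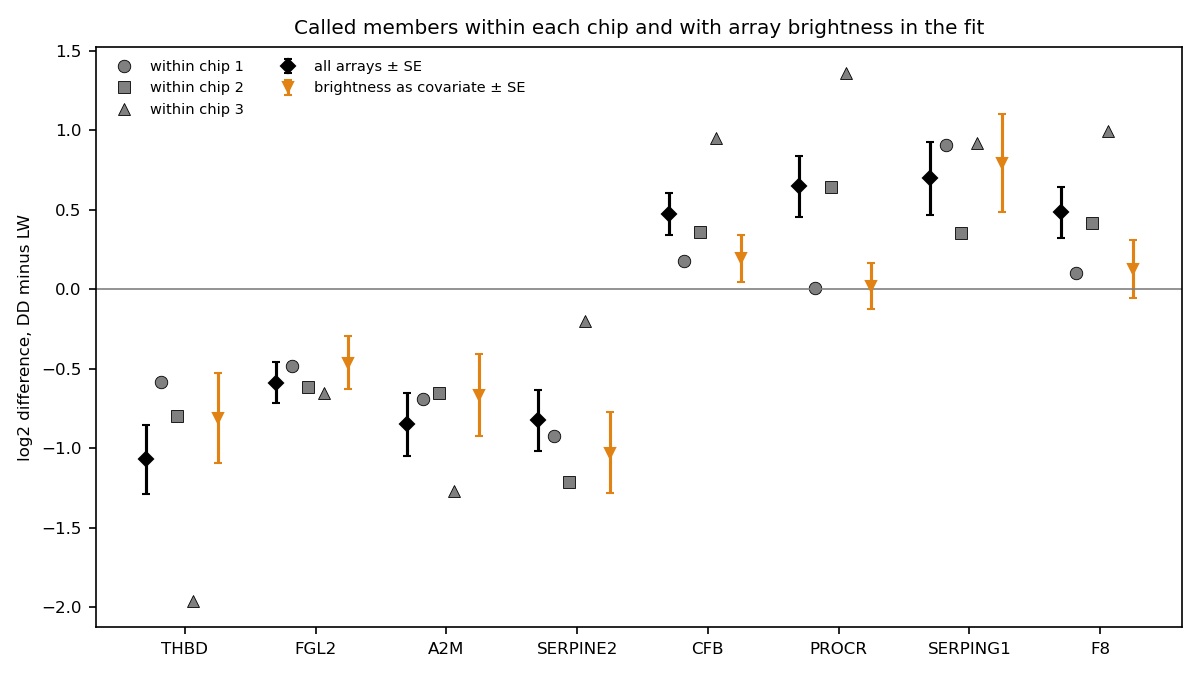
Log2 difference of the 8 called members over all arrays, within each chip, and with array brightness in the fit, with SE bars where a fit was made. CFB, PROCR and F8 are between 0.01 and 0.18 on chip 1 and between 0.95 and 1.36 on chip 3, while FGL2 stays between -0.65 and -0.48.

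CLU, VWF and C1QA had the widest spread within breeds. CLU, clusterin, a chaperone that blocks the membrane attack complex and is stored in platelets, had a pooled SD of 1.31. It ran from 7.83 to 12.12 in DD and from 7.39 to 11.42 in LW, and its breed difference was 0.62 ± 0.50. VWF had a pooled SD of 1.01, from 6.19 to 9.46 in DD and from 6.41 to 10.13 in LW. C1QA had a pooled SD of 0.85, but it was well above background on at most 1 DD and 2 LW arrays, so most of its values lay near the background. DD replicate 16 was the lowest DD pig for both CLU and VWF, and LW replicate 22 and LW replicate 14 were the lowest and the highest LW pigs for both. CLU and VWF lie above 99.8% and 99.3% of all features in spread.

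**Figure D5:**
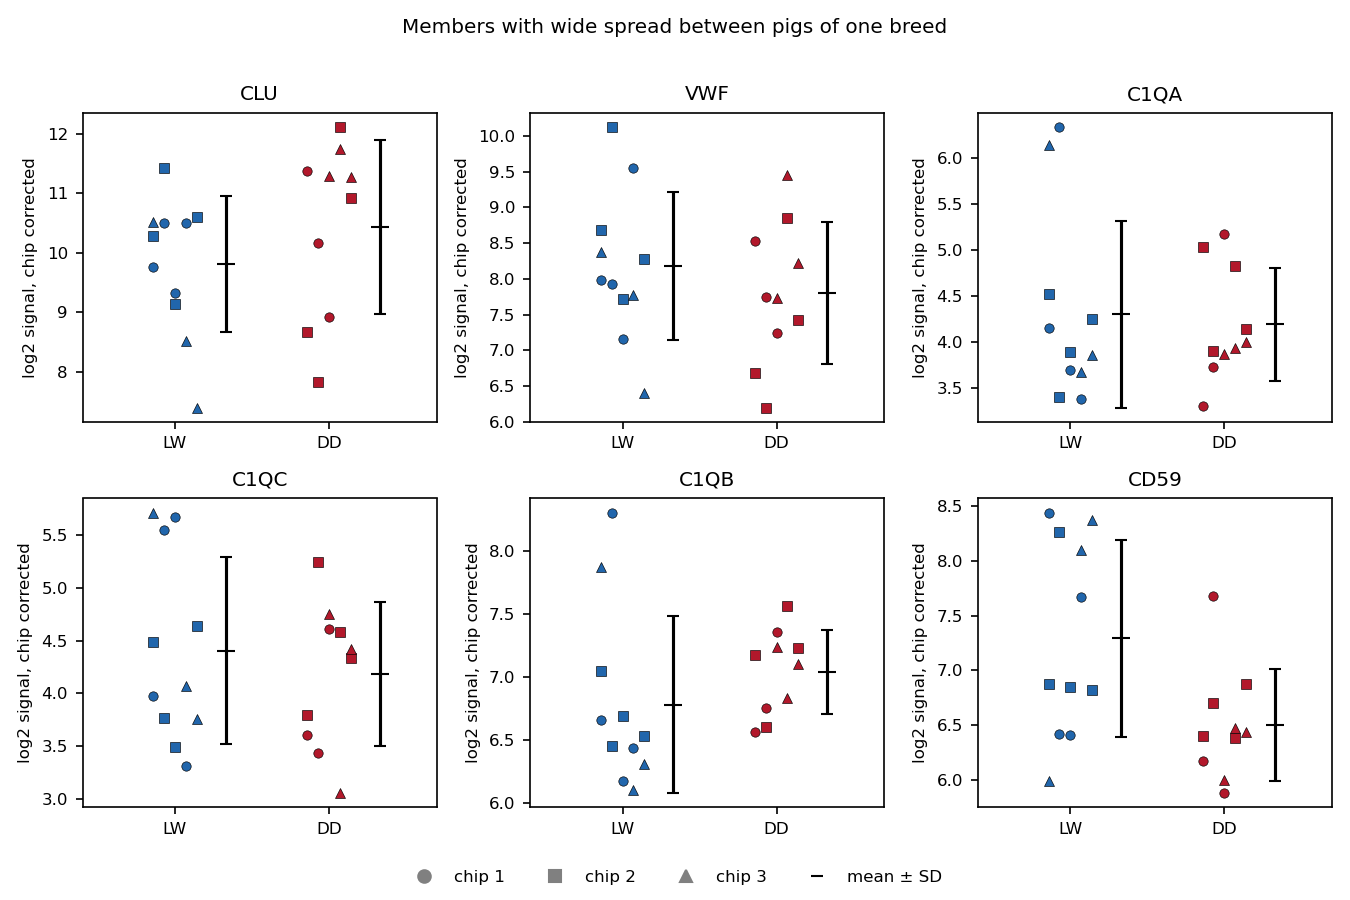
Chip-corrected log2 signal of CLU, VWF, C1QA, C1QC, C1QB and CD59, one point per pig with the marker giving the chip and bars for mean ± SD. In CLU the values span more than 4 log2 units in each breed.

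Beyond the members, 62 other complement, coagulation and fibrinolysis genes were listed, and 29 features of them were tested. Of these, 2 were called, both lower in DD, which is 6.9% of them beside 21.2% of all features. F2R, the thrombin receptor PAR1 of platelets and other cells, ran from 6.28 over 7.00 to 7.27 in DD and from 6.83 over 8.79 to 9.52 in LW. The difference was -1.76 ± 0.23 (3.38-fold lower, adjusted p = 3.03e-05), and it passed with brightness as a covariate (-1.32 ± 0.27, adjusted p = 0.00997). LMAN1, the cargo receptor that carries factors V and VIII out of the endoplasmic reticulum, ran from 6.79 over 7.23 to 7.83 in DD and from 7.42 over 7.66 to 8.27 in LW. Its difference was -0.54 ± 0.13 (adjusted p = 0.00809), and -0.28 ± 0.14 with brightness as a covariate (adjusted p = 0.443).

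Marker lists of blood cell types were fitted in the same way, beside 21.2% of all features called, and their part in the differences above was not tested. The share called ran from 0% of neutrophil markers to 37.5% of interferon-induced genes and 42.9% of erythroid markers, and the T cell share was 22.2%. Of 8 platelet markers 1 was lower in DD, PPBP, and their summed log2 signal ran from 12.36 to 14.13 in DD and from 12.97 to 14.41 in LW. Of 8 monocyte markers 1 was lower, CD163, with summed signals of 13.04 to 14.27 and 13.42 to 14.17. None of 7 neutrophil markers was called, at 12.72 to 14.37 and 13.40 to 14.23. Of 9 T cell markers 2 were lower, CD3D and CD3G, at 11.55 to 13.01 and 12.20 to 13.23, and 1 of 6 B cell markers was higher, VPREB3, at 12.51 to 13.24 and 11.80 to 13.20. Of 7 erythroid markers 3 were higher, ALAS2, CA1 and EPB42, at 18.15 to 19.03 and 17.83 to 18.96. The DD median of this erythroid sum, 18.54, lay below the LW median, 18.74. Of 16 interferon-induced genes 6 were higher, at 14.88 to 17.19 in DD and 14.44 to 15.44 in LW. Of 7 endothelial markers ENG was higher, at 9.50 to 10.01 and 9.01 to 9.79, and KDR was not well above background on any array. Of 6 hepatocyte markers APOA2 was higher, at 11.62 to 12.88 and 11.23 to 12.49, and ALB was well above background on at most 4 DD and 10 LW arrays.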

How the data were processed

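Whole-blood RNA of 21 pigs was labelled with Cy3 and hybridised to 1-colour Agilent pig arrays on 3 chips. The authors deposited scanner intensity values (Agilent Feature Extraction 10.7.3.1, per the submitters' processing notes) and a log2 matrix, quantile normalised by the authors, of 60306 rows. The number of arrays limits the precision. Litter and chip were taken from the study's sample list. The 25% of probes with the lowest mean were removed, and the rest averaged per gene name. Fits used limma 3.58.1 and statmod 1.5.0 in R 4.3.3, with breed and chip fixed, litter as random block (duplicateCorrelation, consensus -0.11) and Benjamini-Hochberg adjustment over all 34512 features. The pipeline was tested on simulated data. Named were members past an adjusted p of 0.05 with 1 sign on all 3 chips (up to 14), the 2 largest that did not pass, the 3 with the widest spread, and up to 8 other pathway genes. Members and lists were chosen with earlier results of these data known. Alternatives were scanner values (normexp offsets 0 and 50), 75th percentile scaling, other filters, probe summaries, blocks, chips, brightness and each pig left out. Merging gene names was added after seeing the data. The place and strand of the probes in their transcripts were not given in the sources used here, so a probe may lie opposite to its mRNA.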

Additional observations from a re-analysis of the deposited data

Results flagged for a closer look

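In 42 DD groups of 10 pigs examined, 4 held a pig whose gap to the nearest other was large for the range, where chance flags about 1 in 20 groups. DD replicate 16 had a PLAUR signal of 9.56, and the next DD pig had 10.44. DD replicate 10 had a SERPINA1 signal of 6.2, and the next had 4.88. DD replicate 21 had a SERPINE2 signal of 5.56, and the next had 4.53. DD replicate 6 had an LMAN1 signal of 7.83, and the next had 7.31. The groups of 11 LW pigs were not examined.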

How the results depend on the processing

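Over the refits of the 40 members and 2 other named genes, 1401 kept direction and side of the threshold, 66 lost a call, 37 gained one and 74 changed sign. None of the 8 called members changed sign, though they were picked for their differences in these same data. The differences that did change sign were at most 0.74 in size in the main fit. Of the 74 refits with a changed sign, 4 passed the threshold. Calls among members numbered 8 and became 4 without a filter on low values, 4 without a chip term, 4 without chip 2, 1 without chip 3, 1 with brightness as a covariate and 16 when every probe was tested alone (a gene counted once). Calls among other pathway genes numbered 2 and became 5 for probes well above background, 5 without chip 1, 4 without chip 2, 1 without chip 3 and 1 with brightness. Calls over all features numbered 7313 and became 4588 without a filter, 1922 without a chip term, 526 without chip 3 and 753 with brightness. They were 8304 for probes well above background, 7786 without chip 1 and 5067 without chip 2. Without the litter block, whose consensus correlation was negative, they were 5035, and F8 and SERPING1 lost their calls. The block thus made the breed test less strict. Leaving out 1 pig gave 4 (without DD replicate 21 or LW replicate 18) to 14 (without DD replicate 6) member calls, with 5 without LW replicate 22. It gave 2 to 6 other pathway calls (6 without DD replicate 6, 5 without LW replicate 7, 4 without DD replicate 11 or 16). Over all features it gave 2212 (without LW replicate 18) to 11486 (without DD replicate 6), with 3096 without DD replicate 21, 4139 without DD replicate 23, and 3914, 4740 and 4779 without LW replicates 22, 5 and 12. DD replicate 6 had the brightest and DD replicate 21 the dimmest DD array. The cause of these changes was not tested. Sign changes are listed next as log2 differences. With 75th percentile scaling these were C1QA 0.40, C3 0.078, CD55 0.082, CFI 0.090, PLAUR 0.085, PROC 0.13. With brightness as a covariate these were C1R 0.29, CD55 0.15, CFI 0.34, CLU -0.035, F10 -0.22, F13A1 -0.0072, F2 0.13, PLAUR 0.095, SERPINC1 -0.033, SERPIND1 -0.078, TFPI -0.50. Without chip 1 these were C1QC 0.042, CD46 -0.031, PLAU -0.025, PROC 0.14. Without chip 2 these were C1R 0.051, C3 0.22, CD46 -0.068, PLAUR 0.19, PROC 0.12, VWF 0.11. Without chip 3 these were C1QA 0.17, CD55 0.10, CFI 0.039, CLU -0.37, F13A1 -0.013, F2 0.018, TFPI -0.19. With litter means these were C1R 0.0038, CD55 0.025. With the brightest probe these were C3 0.94, C5AR1 -0.20, CD55 0.34, F5 0.076. With a normexp offset of 50 C3 gave 0.080. With merged gene names, chosen after seeing the data, C1QA gave 0.12. Single probes gave C3 0.94, C5AR1 -0.20, CD55 0.34, F5 0.076, PLAU -0.18, PLAUR 0.17, VSIG4 -0.15. With 1 pig left out in turn, differences that changed sign ranged, by gene, over C1QA -0.25 to 0.12, C1R -0.23 to 0.057, C3 -0.15 to 0.047, CD46 -0.027 to 0.092, CD55 -0.060 to 0.042, CFI -0.18 to 0.0088, PLAUR -0.12 to 0.091, PROC -0.20 to 0.038. No paired analysis was possible because the breeds were made up of different pigs from different litters. Array signal over background limits C1QA, C1QC, C1S, C5, F2, F7, PROC, SERPINA1 and SERPINE2, which at most 3 DD arrays measured well above it.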
